A study of Mus musculus with 36 samples.

Results

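The report follows 10 genes that mark the primitive streak and the mesoderm arising from it, namely *T*, *Mixl1*, *Eomes*, *Mesp1*, *Evx1*, *Fgf8*, *Msgn1*, *Tbx6*, *Lhx1* and *Gsc*. They were chosen by name, and all 10 are among the 50600 genes listed for the sorted Day 3 cells and the 29267 genes listed for the other libraries. Bulk RNA-seq was analysed in 11 mouse libraries of the BiPNT system, in which BMP4 moves primed pluripotent cells to the naïve state, and they fall into 3 experiments. The first compares Day 3 c-Kit+ cells with Day 3 c-Kit- cells, 2 libraries each, separated with an antibody to the receptor c-Kit. The second compares Day 6 BV+SC+ cells (2 libraries) with epiblast stem cells (EpiSCs, 3 libraries). The third compares Day 3 cells with SGC0946, an inhibitor of the histone methyltransferase DOT1L, and without it, 1 library each.

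EpiSCs are primed pluripotent cells kept in N2B27 with Activin A, bFGF and the Wnt pathway inhibitor XAV939. For BiPNT they first receive BMP4 in iCD1, a medium with vitamin C, bFGF, LiCl, LIF and the Wnt pathway agonist CHIR99021, together with the EZH2 inhibitor EPZ6438 and a DOT1L inhibitor (EPZ5676 or SGC0946). After this first stage, the medium is N2B27 with 2i and vitamin C, to which the methods also add LIF while the labels of the BV+SC+ cells do not name it. BV+SC+ cells come from EpiSCs made from an embryonic stem cell line with 2 reporter transgenes, Blimp1-mVenus and Stella-ECFP. They are positive for both reporters, were sorted by flow cytometry, and are labelled PGCLCs (primordial germ cell-like cells). The descriptions of BV+SC+ replicates 1 and 2 carry the words 2iJi and GK15. GK15 is a medium that the study tried in the second stage. In other cells the study also added a JAK inhibitor in that stage, but 2iJi is not explained in the sources used here. Both BV+SC+ replicates share 1 growth protocol. Whether they differ in medium is thus not settled, and such a difference and the replicate cannot be told apart. The condition and day of the SGC0946 libraries come from their titles, and their labels call the cells epiblast stem cells. Which line gave the EpiSC and Day 3 libraries, and whether replicates are separate cultures, is not given in the sources used here, so p-values measure only the spread between these libraries.

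The primitive streak is the region of the gastrulating embryo through which epiblast cells leave to form mesoderm and definitive endoderm. BMP, Nodal and Wnt signals together induce it, and BMP4 acts upstream of Wnt3 and Nodal in this tissue. The streak is also near the place where primordial germ cells arise. Among the 10 genes, *T* (Brachyury), *Eomes* and *Tbx6* encode T-box transcription factors. *Mixl1*, *Evx1*, *Lhx1* and *Gsc* encode homeobox factors, *Mesp1* and *Msgn1* encode basic helix-loop-helix factors of nascent and presomitic mesoderm, and *Fgf8* encodes a secreted fibroblast growth factor.

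RefSeq promoter windows of GRCm38.p6 were found for 8 of the 10 genes (the 250 bases before the RefSeq start are used), and *Mixl1* and *Fgf8* had none. The windows of *T*, *Evx1* and *Eomes* are printed because these were the genes that differed between c-Kit+ and c-Kit- cells. They lie at chr17:8434173-8434422, chr6:52313248-52313497 and chr9:118477939-118478188, all on the plus strand. Capitals mark CTTTGA, the core letters of a TCF/LEF site, and AGGTGT, the core letters of a T-box site, on either strand. The motifs were chosen after the sequences had been seen.
T: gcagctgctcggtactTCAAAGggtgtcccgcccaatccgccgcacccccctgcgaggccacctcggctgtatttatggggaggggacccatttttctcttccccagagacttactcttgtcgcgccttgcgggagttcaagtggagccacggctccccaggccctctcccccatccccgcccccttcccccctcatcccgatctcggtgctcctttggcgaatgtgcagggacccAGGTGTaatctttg
Evx1: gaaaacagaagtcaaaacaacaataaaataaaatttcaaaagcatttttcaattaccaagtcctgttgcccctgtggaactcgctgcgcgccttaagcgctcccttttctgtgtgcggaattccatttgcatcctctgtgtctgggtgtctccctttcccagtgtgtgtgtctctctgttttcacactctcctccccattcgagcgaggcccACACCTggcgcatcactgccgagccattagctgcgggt
Eomes: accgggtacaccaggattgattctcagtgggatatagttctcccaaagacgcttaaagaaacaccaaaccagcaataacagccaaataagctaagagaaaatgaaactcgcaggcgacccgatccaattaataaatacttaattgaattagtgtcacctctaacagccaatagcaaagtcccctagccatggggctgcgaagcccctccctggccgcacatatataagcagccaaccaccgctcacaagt

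The *T* window holds 1 match to each motif, the TCF/LEF core 234 bases and the T-box core 14 bases before the start. The *Evx1* window holds 1 T-box core, 38 bases before the start on the minus strand, and the *Eomes* window holds neither. Among the 32851 windows of this length, 13.8% hold the TCF/LEF core, 11.8% the T-box core and 1.85% both. A match describes these letters only.

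Levels are given in expected counts, the estimate of reads per gene made by the authors with RSEM, and as TPM, which also corrects for transcript length and so allows levels of different genes to be compared. The libraries hold 1726038 to 1841442 expected counts in the sorted Day 3 cells, 2444211 to 3070115 in EpiSCs, 14778809 to 18099059 in BV+SC+ cells, and 4577685 and 4776143 in the SGC0946 experiment. A gene without a count could still have 3 counts in a library, which make between 0.166 and 1.74 CPM (counts scaled by library size). These floors and the intervals below cover counting error only. All replicate pairs differed by more than sampling noise. The chi-square per degree of freedom was 2.01 to 4.46 outside the BV+SC+ pair and 45.4 for that pair, which is also far deeper, and since this measure grows with depth it does not rank the pairs. In the sorted cells *Kit* had a mean of 97.8 TPM in c-Kit+ and 4.03 TPM in c-Kit- libraries.

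**Figure D1:**
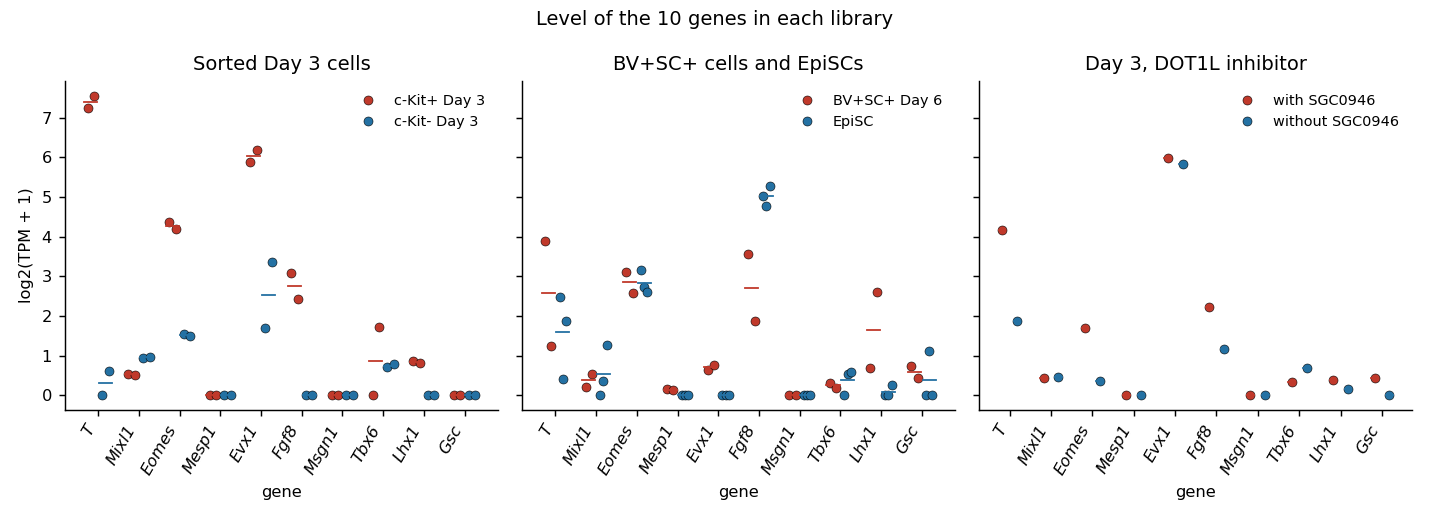
Level of each of the 10 genes in each library, as log2(TPM + 1) on the vertical axis, in the 3 experiments. Points are libraries and horizontal lines are group means on this scale. The c-Kit+ libraries of *T*, *Eomes*, *Evx1*, *Fgf8* and *Lhx1* lie above both c-Kit- libraries, those of *Mixl1* lie below both, and *Msgn1* lies at 0 throughout. *Fgf8*, *Lhx1* and *Mixl1* had at most 5 counts in each of these libraries. The share of all genes separated in this way was not computed, so the separation alone carries no weight.

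In Day 3 cells, *T*, *Evx1* and *Eomes* were higher in c-Kit+ than in c-Kit- cells, *T* by the largest fold of these 3. *Fgf8* was counted only in c-Kit+ cells, at a few reads. *Mesp1*, *Msgn1* and *Gsc* had no count in any of these libraries, and *Mixl1*, *Tbx6* and *Lhx1* stayed at a few reads. The differences were tested with edgeR's quasi-likelihood test on all 11018 genes that passed its filter on low counts, and a gene was called at a Benjamini-Hochberg adjusted p under 0.05 and a fold change over 2. By this rule 9.97% of all genes tested were called higher and 12.9% lower in c-Kit+ cells. Of the 10 genes, 3 passed the filter and were called higher. A gene can pass through its counts in c-Kit+ cells alone, as *T*, *Evx1* and *Eomes* did, so this count carries no weight of its own.

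*T* (ENSMUSG00000062327, chromosome 17, 8434423 to 8442496 of GRCm38) is the founding T-box factor and is needed for posterior mesoderm and the notochord. Its expected counts were 183 and 268 for the c-Kit+ replicates, and 0 and 1 for the c-Kit- replicates. This corresponds to 151 and 187 TPM against 0 and 0.53 TPM. Both c-Kit+ libraries were thus far above both c-Kit- libraries, and *T* had the highest TPM of the 10 genes in c-Kit+ cells. With 1 count in all in c-Kit- cells, the ratio of pooled CPM was 458, with an exact 95% counting interval from 81.8 to 18142. The log2 fold change of *T* was 8.55 ± 0.47 (SE; edgeR adjusted p = 2.08e-06), and it rested on the 1 count in c-Kit- replicate 2, becoming 10.83 without that library and 7.68 without c-Kit- replicate 1.

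*Evx1* (ENSMUSG00000005503, chromosome 6, 52313498 to 52318378) encodes an even-skipped homeobox factor of the posterior streak. Its expected counts were 149 and 208 for the c-Kit+ replicates and 6 and 22 for the c-Kit- replicates, or 57.9 and 71.9 TPM against 2.21 and 9.31 TPM. The groups did not overlap, and the c-Kit- libraries differed from each other more than the c-Kit+ libraries did in relative terms. The log2 fold change of *Evx1* was 3.72 ± 0.37 (SE; edgeR adjusted p = 6.60e-05). It was 4.91 without c-Kit- replicate 2 and 3.04 without c-Kit- replicate 1.

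The exons of *Evx1* share 73 bases with the antisense gene *Evx1os* (chromosome 6, 52308389 to 52314832). *Evx1os* moved in the same direction, at 27 and 34 counts for c-Kit+ and 0 and 2 counts for c-Kit- replicates (log2 fold change 4.82 ± 0.71 SE, edgeR adjusted p = 0.000632). Whether the counting used strand is not stated, so reads over the shared bases are uncertain for both genes.

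*Eomes* (ENSMUSG00000032446, chromosome 9, 118478212 to 118486132) acts in the early streak and in definitive endoderm, and is also a factor of trophoblast stem cells. Its expected counts were 66 and 63 for the c-Kit+ replicates and 6 for each c-Kit- replicate, or 19.6 and 17.4 TPM against 1.92 and 1.80 TPM. The replicates lay close together and the groups were clearly apart. The log2 fold change of *Eomes* was 3.46 ± 0.35 (SE; edgeR adjusted p = 6.40e-05), and between 3.36 and 3.51 with each library left out. *Eomes* shares 118 exon bases with the antisense gene *Gm33460*, which had 1 count in c-Kit+ replicate 2 and none in the other libraries of the sorted cells.

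The trophoblast markers went the other way in these libraries. Of 12 trophoblast markers tested, c-Kit+ cells had 9 lower and 1, *Cdx2*, higher, and their summed level was 1515 to 1826 TPM in c-Kit+ and 6957 to 7667 TPM in c-Kit- libraries. *Tpbpa* had no count in either group. The part of this difference in the values of *Eomes* was not tested. In bulk libraries, fewer cells that express a gene and less RNA per cell cannot be told apart.

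*Fgf8* (ENSMUSG00000025219, chromosome 19, 45736798 to 45742915), a growth factor needed for cells to leave the streak, was counted 5 and 4 times in the c-Kit+ replicates and never in the c-Kit- replicates. This makes 7.45 and 4.42 TPM, and with 3 counts per c-Kit- library as the floor the c-Kit+ level is at least 1.55-fold higher. *Fgf8* did not pass the filter on low counts and was not tested. Without any filter its adjusted p in the edgeR test was 0.0629.

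*Lhx1*, which encodes a LIM homeobox factor of the anterior streak and lateral mesoderm, had 3 counts in each c-Kit+ library and none in c-Kit- libraries, so no fold is given. *Tbx6*, a factor of paraxial mesoderm, had 0 and 4 counts in c-Kit+ and 1 in each c-Kit- library. *Mixl1*, a homeobox factor of streak and endoderm, had 1 count in each c-Kit+ and 2 in each c-Kit- library. At this depth no difference of *Lhx1*, *Tbx6* or *Mixl1* was detectable.

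By TPM, the order in c-Kit+ cells was *T* (mean 169 ± 25.4, SD, n = 2), *Evx1* (64.9 ± 9.91, SD, n = 2), *Eomes* (18.5 ± 1.59, SD, n = 2) and *Fgf8* (5.94 ± 2.14, SD, n = 2). No 2 neighbours in this order overlapped between libraries. The other 6 genes were at or under 2.30 TPM in each c-Kit+ library. In c-Kit- cells *Evx1* was first, and its lowest library was above both *Eomes* libraries, which were at 1.80 and 1.92 TPM.

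**Figure D2:**
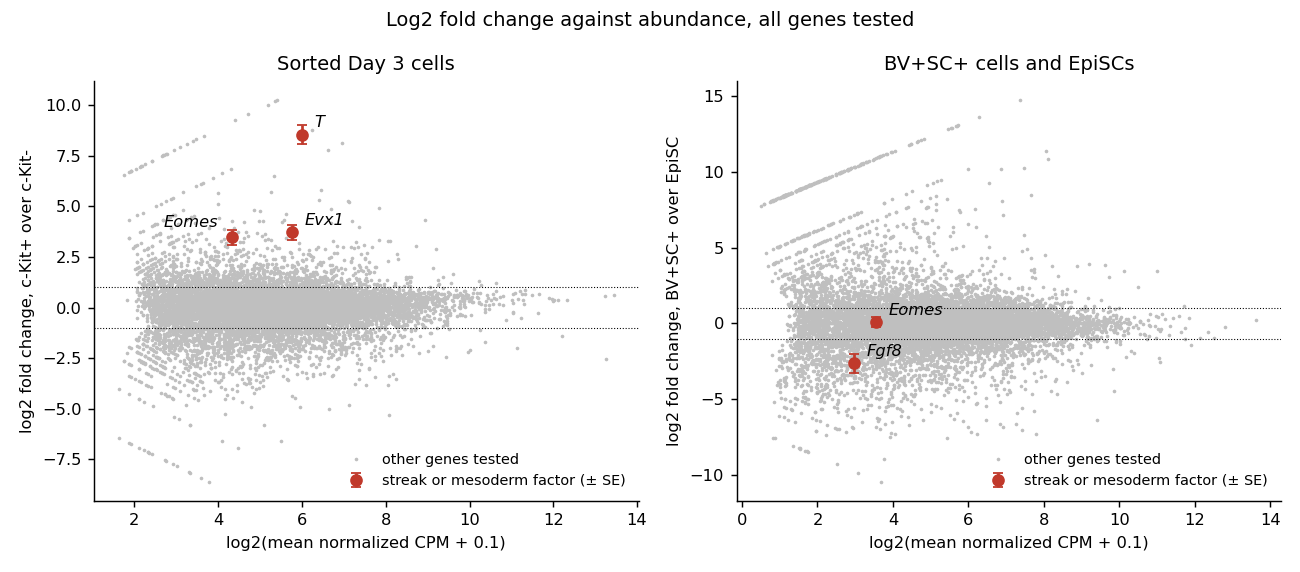
Log2 fold change of each gene tested against its mean normalized CPM (log2 scale with 0.1 added), c-Kit+ over c-Kit- cells on the left and BV+SC+ cells over EpiSCs on the right. Grey points are all other genes tested, red points with SE bars are the streak and mesoderm factors that passed the filter, and dotted lines mark a 2-fold change. *T*, *Evx1* and *Eomes* lie above the upper line on the left, and on the right *Fgf8* lies below the lower line and *Eomes* at 0.10.

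The signals that induce the streak were mixed between c-Kit+ and c-Kit- cells. Of 23 such genes, 20 passed the filter, with 5 called higher and 2 called lower in c-Kit+ cells, and their median log2 fold change was -0.27, beside 0.03 over all genes tested. *Tdgf1*, the co-receptor of Nodal, averaged 194 TPM in c-Kit+ and 12.3 TPM in c-Kit- cells (log2 fold change 4.17, edgeR adjusted p = 2.08e-06). *Foxh1*, a partner of SMAD proteins, changed by 1.82. The other genes called higher, named after their values were seen, were *Nodal* (41.5 against 3.85 TPM), *Wnt8a* (48.5 against 2.82 TPM) and the convertase gene *Pcsk6* (39.9 against 6.69 TPM). *Smad3* fell by 1.12 on the log2 scale, or by 0.97 and so under the 2-fold limit without c-Kit- replicate 1, and *Furin* was the other gene called lower. *Wnt3* was not called, at 5.76 TPM in c-Kit+ and 12.5 TPM in c-Kit- cells.

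Inhibitors of these signals were also split. Of 8 genes, 6 passed the filter, with 4 called higher and 2 called lower in c-Kit+ cells, with a median log2 fold change of 1.61. *Lefty1* and *Lefty2*, which encode secreted antagonists and targets of Nodal, averaged 227 and 120 TPM in c-Kit+ cells and 1.00 and 3.25 TPM in c-Kit- cells, and changed by 7.78 and 5.32 on the log2 scale (adjusted p from edgeR 1.04e-06 and 6.41e-07). The Wnt antagonist genes *Dkk1* and *Sfrp1* fell by 2.03 and 2.38 on the log2 scale. *Chrd* and *Fst*, named after their values were seen, changed by 1.57 and 1.66 (edgeR adjusted p = 0.0417 and 0.0447). The call on *Chrd* was lost without any 1 of the 4 libraries, and that on *Fst* without c-Kit- replicate 2 or c-Kit+ replicate 2. The number of inhibitors called higher was 2 with DESeq2, and 2 without c-Kit- replicate 2 or without c-Kit+ replicate 2.

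FGF pathway genes were mostly higher on the c-Kit+ side. Of 10 genes of the FGF8 subfamily, its receptors and FGF targets, 7 were tested and 6 were higher, with a median log2 fold change of 3.29. The target genes *Etv5*, *Etv4*, *Dusp6* and *Spry2* changed by 4.93, 2.50, 3.29 and 4.62 on the log2 scale (edgeR adjusted p between 1.34e-07 and 2.45e-06). *Fgf17*, of the same subfamily as *Fgf8*, was too low to test, with 19 counts in c-Kit+ and 14 counts in c-Kit- cells over both libraries.

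Of 35 other streak and mesoderm genes, only 15 passed the filter, and c-Kit+ cells had 6 higher and 4 lower, with a median log2 fold change of 0.78. *Msx1*, a homeobox gene downstream of BMP, rose by 1.87 on the log2 scale. *Hand1* fell by 2.35, *Cited1* by 2.10 and *Snai1*, a repressor of epithelial genes, by 1.31. *Hand1* is also on the list of trophoblast markers. *Mesp2*, *Foxf1*, *Ripply2*, *Meox1*, *Aplnr* and *Cdx4* had no count in any of these libraries.

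Of 11 node and definitive endoderm genes, 4 were tested. *Otx2* and *Cxcr4* rose by 5.39 and 2.98 on the log2 scale in c-Kit+ cells (edgeR adjusted p = 0.000645 and 0.00246), and *Sox17* fell by 3.02. *Otx2* is also a primed epiblast marker, and *Noto* and *Shh*, which define the notochord and node, had no count. Of 14 other T-box genes, 4 were tested and none was called by edgeR or by DESeq2. At an adjusted p under 0.05 edgeR gave 2, 1 in each direction, and DESeq2 gave 1, all under the 2-fold limit. The summed TPM of these T-box genes was 51.8 to 52.4 in c-Kit+ and 45.2 to 49.2 in c-Kit- libraries.

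Pluripotency and germ cell markers moved with the streak genes. Of 6 primed epiblast markers tested, c-Kit+ cells had 4 higher and 1 lower, with summed levels of 1650 to 1735 TPM against 152 to 155 TPM. Most of the c-Kit+ sum was *Pou5f1*, at a mean of 1259 TPM against 68.3 TPM in c-Kit- cells. Naïve markers were higher at 4 of 7 genes and germ cell markers at 4 of 5. The germ cell markers called higher include *Kit*, whose protein was used for the sort, so that call follows from the sort. Both neural and fibroblast markers were lower where called, at 1 of 2 and 3 of 3 genes tested. The part of these cell types in the values of *T*, *Evx1* and *Eomes* was not tested.

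**Figure D3:**
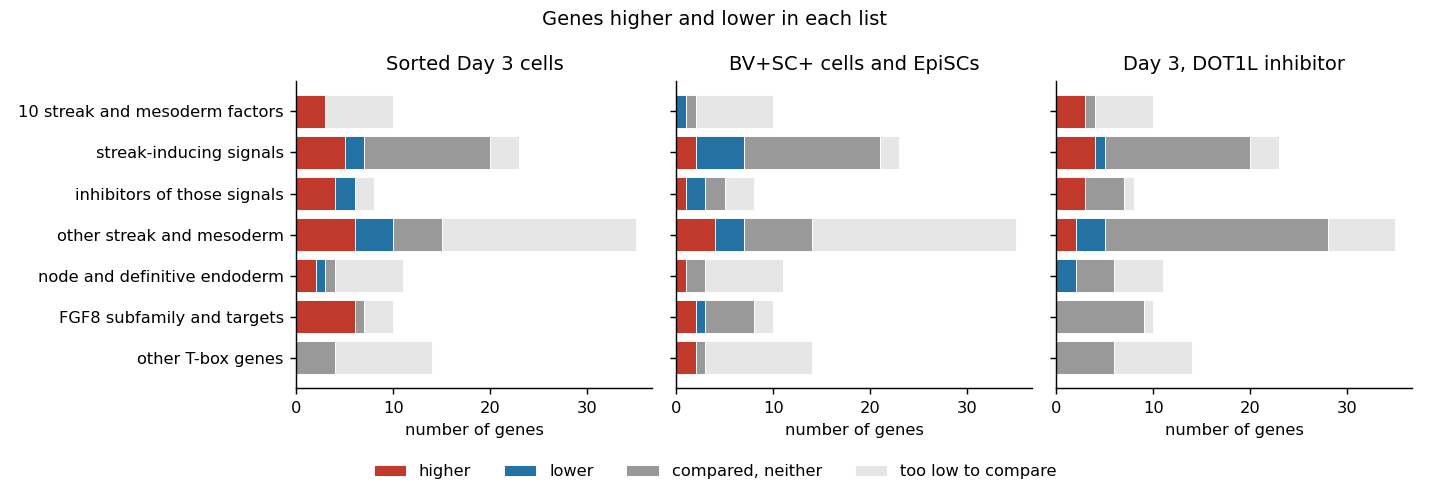
Number of genes in each list that were higher, lower, compared but neither, or too low to compare, in the 3 experiments. In the panel of the DOT1L inhibitor, higher and lower mean past 2-fold between 2 libraries with no test. FGF8 subfamily and target genes were higher at 6 of 10 genes in c-Kit+ cells.

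Between Day 6 BV+SC+ cells and EpiSCs, *Fgf8* was lower in BV+SC+ cells and *Eomes* was at a like level. *T* and *Lhx1* differed several-fold between the BV+SC+ libraries, in opposite directions. *Evx1* had counts in BV+SC+ cells only, at under 1 TPM. Among all 11792 genes tested, 16.8% were called higher and 17.2% lower in BV+SC+ cells. Of the 10 genes, 2 passed the filter, 1 was called lower and none higher. Neither of the genes tested was higher at an unadjusted p under 0.05 in edgeR's test, and DESeq2 also called 1 of these lower and none higher. The other 8 genes have no p-value with the filter.

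*Fgf8* had 42, 27 and 30 expected counts in the EpiSC libraries, and 46 and 13 in the BV+SC+ libraries, which are several times deeper. In TPM this is 31.9, 26.3 and 37.8 against 10.7 and 2.69. All EpiSC libraries were above both BV+SC+ libraries, and *Fgf8* had the highest TPM of the 10 genes in EpiSCs. Its log2 fold change was -2.64 ± 0.61 (SE; edgeR adjusted p = 0.00688). It was -3.95 without BV+SC+ replicate 1 and -1.94 without replicate 2.

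*Eomes* had 42, 31 and 23 expected counts in EpiSCs and 220 and 171 in BV+SC+ cells, or 7.91, 5.58 and 5.04 TPM against 7.60 and 5.02 TPM. The groups overlapped. The log2 fold change of *Eomes* was 0.10 ± 0.32 (SE; edgeR adjusted p = 0.803), and the ratio of pooled CPM was 1.05 with a counting interval from 0.839 to 1.33.

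*T* had 6, 1 and 4 expected counts in EpiSCs and 149 and 9 in BV+SC+ replicates 1 and 2, or 4.57, 0.33 and 2.67 TPM against 13.8 and 1.38 TPM. Replicate 1 was above all EpiSC libraries and replicate 2 lay among them. Between these BV+SC+ libraries, the CPM of *T* was 20.3-fold higher in replicate 1, with a counting interval from 10.4 to 45.2. *T* did not pass the filter. With no filter it was called higher in BV+SC+ cells (log2 fold change 2.01, edgeR adjusted p = 0.00491), and with any 1 EpiSC library left out it was not. Without replicate 2 its log2 fold change was 2.90. That fit holds 1 BV+SC+ library, so the spread between BV+SC+ libraries does not enter it.

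*Lhx1* ran opposite to *T* between the BV+SC+ libraries, with 20 expected counts in replicate 1 and 157 in replicate 2, and 0, 0 and 1 in EpiSCs. The BV+SC+ levels were 0.62 and 5.09 TPM, and replicate 2 was 6.41-fold higher than replicate 1 by CPM (counting interval 4.01 to 10.8). Both were above each EpiSC library, and the ratio of pooled CPM to EpiSCs was 45.7 with a counting interval from 8.09 to 1814. *Lhx1* did not pass the filter. Without EpiSC replicate 3 it was called higher, with a log2 fold change of 8.64 (edgeR adjusted p = 0.0361), and so it was with no filter (5.30, adjusted p = 2.04e-07). Without BV+SC+ replicate 1 its log2 fold change was 6.02. That fit holds 1 BV+SC+ library, so the spread between BV+SC+ libraries does not enter it.

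*Fgf8* also differed between the BV+SC+ libraries, 4.33-fold higher in replicate 1 (counting interval 2.30 to 8.74), and *Eomes* by 1.58-fold in the same direction (1.28 to 1.94). *Evx1* did not, with a ratio of 1.00 and a counting interval from 0.453 to 2.27. These are comparisons of single libraries and say nothing of a replicated difference.

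*Evx1* had 13 and 16 expected counts in BV+SC+ cells and none in the 3 EpiSC libraries. Its mean of 0.881 CPM is under what 3 counts make in EpiSC libraries, between 0.977 and 1.23 CPM. No single EpiSC library was thus deep enough to show a difference, and *Evx1* did not pass the filter. With no filter the gene was called higher by edgeR, which takes the 3 EpiSC libraries together (adjusted p = 0.0308). *Evx1os* had 3 and 1 counts in BV+SC+ cells and none in EpiSCs.

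*Mixl1* had 0, 1 and 4 counts in EpiSCs and 3 and 10 in BV+SC+ cells, and *Gsc*, an organizer factor, had 0, 2 and 0 against 6 and 4. *Tbx6* had 0, 1 and 1 against 3 and 2. *Mesp1*, the early marker of cardiac mesoderm, had 1 count in each BV+SC+ library and none elsewhere, and *Msgn1* had none. All of these were at most 1.41 TPM in each of the 5 libraries.

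In EpiSCs the order of TPM was *Fgf8* (mean 32.0 ± 5.74, SD, n = 3), *Eomes* (6.18 ± 1.53, SD, n = 3) and *T* (2.52 ± 2.12, SD, n = 3), and these did not overlap between libraries. In BV+SC+ cells *T*, *Fgf8*, *Eomes* and *Lhx1* averaged 7.58, 6.71, 6.31 and 2.86 TPM (SD 8.77, 5.68, 1.82 and 3.16, n = 2 for each), and their library ranges overlapped, so this order is not fixed.

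The lists around these genes were again mixed. Of 21 streak-inducing genes tested, 5 were lower and 2 higher in BV+SC+ cells, with a median log2 fold change of -0.60 beside 0.05 over all genes. *Tdgf1* fell by 2.79, *Tcf7l1*, a repressor of Wnt targets, by 1.49, *Fgf5* by 5.26 and *Smad5* by 1.01 on the log2 scale. *Bmp4* and *Pcsk6*, named after their values were seen, were higher by 2.59 and 2.29. *Smad5* was under the 2-fold limit without BV+SC+ replicate 2 or EpiSC replicate 2, and the call on *Bmp4* was lost without EpiSC replicate 2 (edgeR adjusted p = 0.0578). Of 5 inhibitors tested, *Lefty2* rose by 4.34, and *Lefty1* and *Chrd* fell by 1.87 and 2.37. The call on *Chrd* was lost without EpiSC replicate 1 or 2 (edgeR adjusted p = 0.0804 and 0.0888).

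Of 8 FGF genes tested, *Dusp6* fell by 3.52 on the log2 scale, from a mean of 263 TPM in EpiSCs to 21.6 TPM, and *Fgfr2* and *Fgfr3* rose by 3.68 and 1.65. The call on *Fgfr3* was lost without any 1 of the EpiSC libraries (edgeR adjusted p between 0.0724 and 0.144) and without BV+SC+ replicate 2, where its change was 0.44. The number of FGF genes called lower was 6 without BV+SC+ replicate 2, 3 without replicate 1 and 2 without EpiSC replicate 3. Of 14 other streak and mesoderm genes tested, 4 were higher and 3 lower, against 9 and 5 without BV+SC+ replicate 2, and 7 lower without replicate 1. *Tbx4* and *Aldh1a2*, a retinoic acid synthesis enzyme, had no count in EpiSCs, and their BV+SC+ levels were at least 28.4-fold and at least 10.3-fold higher. *Sp5*, a Wnt target, rose by 6.26 and the Notch ligand gene *Dll3* fell by 3.54. Of 3 other T-box genes tested, *Tbx4* and *Tbx3* were higher, and *Cxcr4* was higher among 3 node and endoderm genes.

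The labels were checked against markers. Germ cell markers were higher at 7 of 7 genes in BV+SC+ cells, with summed levels of 1796 to 1864 TPM against 7.62 to 10.3 TPM, and naïve markers at 7 of 8. The germ cell list includes *Dppa3* (Stella) and *Prdm1* (Blimp1), whose reporters were used to sort these cells. They averaged 1182 and 128 TPM in BV+SC+ cells, so much of this count and sum follows from the sort. Primed epiblast markers were lower at 5 of 8 and higher at 1, and *Dnmt3b* fell by 4.48 on the log2 scale. Trophoblast markers were higher at 6 of 6 genes tested, with sums of 141 to 292 TPM in BV+SC+ and 37.3 to 57.9 TPM in EpiSC libraries. The calls on *Krt8* and *Krt18* were lost without EpiSC replicate 2 or 3. Without BV+SC+ replicate 1 both changed by 0.51 on the log2 scale. Neural and fibroblast markers were lower at 2 of 3 and 1 of 2 genes tested. The part of these markers in the values of the 10 genes was not tested.

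The DOT1L experiment compares Day 3 cells with and without the inhibitor, with 1 library per condition, so that no difference has a replicate check and no p-value is given. With SGC0946, *T*, *Eomes* and *Fgf8* were more than 2-fold higher on a log2(TPM + 1) scale, and *Evx1* was not. Genes were compared where either library exceeded 1 TPM, and of these 14038 genes 6.33% were past 2-fold higher and 3.45% lower with SGC0946. Of the 10 genes 4 were in this set, and *Eomes* entered it through the library with SGC0946 alone.

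*T* had 68 expected counts with SGC0946 (exact Poisson 95% interval 52.8 to 86.2) and 9 without it (4.12 to 17.1), or 16.9 against 2.64 TPM. The library with SGC0946 was higher by 2.29 on the log2(TPM + 1) scale, and the ratio of CPM was 7.24, with a counting interval from 3.60 to 16.5. *Eomes* had 20 counts with SGC0946 (12.2 to 30.9) and 2 without it (0.242 to 7.22), or 2.24 against 0.27 TPM, a difference of 1.35 on that scale. Its ratio of CPM was 9.58, with an interval from 2.33 to 84.6.

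*Evx1* was the most abundant of the 10 genes in both libraries. It had 447 counts with SGC0946 (407 to 490) and 365 without (329 to 404), or 63.0 against 56.2 TPM, a difference of 0.16 on the log2(TPM + 1) scale. The ratio of CPM was 1.17, with an interval from 1.02 to 1.35. *Evx1os* had 83 and 63 counts.

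*Fgf8* had 8 counts with SGC0946 (3.45 to 15.8) and 2 without (0.242 to 7.22), or 3.67 against 1.26 TPM. Its difference of 1.05 lay just past the limit, and the interval of its count ratio of 3.83, from 0.765 to 37.1, includes 1. The other genes had at most 3 counts in each library. *Mixl1* had 2 and 2 counts, *Tbx6* 1 and 2, *Lhx1* 3 and 1, *Gsc* 1 and 0, and *Mesp1* and *Msgn1* none, so no fold is given for these.

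**Figure D4:**
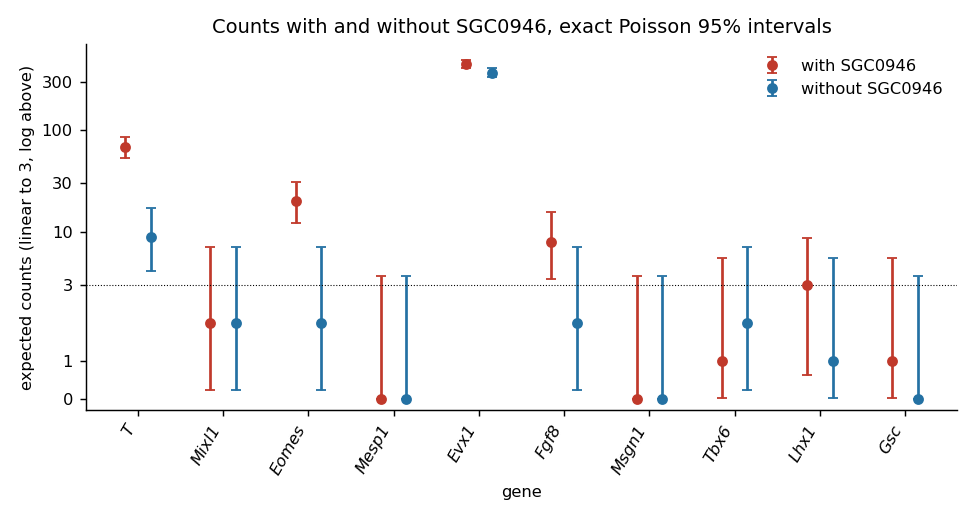
Expected counts of the 10 genes with (red) and without (blue) SGC0946, with exact Poisson 95% intervals for counting error. The axis is linear to 3 counts and logarithmic above, and the dotted line marks the floor of 3 counts. The intervals of *T*, *Eomes* and *Evx1* do not overlap between the libraries, and those of *Fgf8* do. Counts are not scaled by library size, and the library with SGC0946 is slightly deeper. The intervals of *Evx1* nearly touch, at 407 to 490 and 329 to 404, and are apart for unscaled counts only.

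Some genes of the inducing signals were higher in the library with SGC0946. Of 20 streak-inducing genes compared, 4 were past 2-fold higher, namely *Tdgf1* (41.2 against 3.03 TPM), *Wnt8a* (20.3 against 3.12 TPM), *Pcsk6* (17.8 against 6.11 TPM) and, named after its values were seen, *Nodal* (11.8 against 2.12 TPM). *Wnt3* was lower, at 5.77 against 15.3 TPM. The median change of this list was -0.07, beside 0.01 over all genes compared. Of 7 inhibitors, *Lefty1*, *Lefty2* and *Sfrp1* were past 2-fold higher, at 46.6 against 3.40, 18.8 against 3.16 and 7.40 against 3.16 TPM.

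Of 28 other streak and mesoderm genes compared, 2 were past 2-fold higher and 3 lower. *Cdx2* was at 53.0 TPM with SGC0946 and 107.8 TPM without it, *Nkx1-2*, a homeobox gene of the posterior streak, at 27.1 and 97.3 TPM, and *Foxf1* at 3.75 and 18.3 TPM. *Lfng* was higher, at 15.1 against 5.39 TPM. Among 6 node and endoderm genes, *Gata6* and *Gata4* were past 2-fold lower. Of 9 FGF genes and 6 other T-box genes compared, none was past 2-fold.

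The labels of these Day 3 libraries say epiblast stem cell. Their summed trophoblast markers were at 2547 and 3183 TPM with and without SGC0946. Of these sums *Peg10* held 1274 and 1538 TPM, and *Hand1*, also on the mesoderm list, held 493 and 636 TPM. Among primed markers without SGC0946, *Fgf5* had no count, and *Otx2*, *Zic2* and *Pou3f1* were at 0.78, 1.25 and 2.19 TPM. *Sox3*, *Sox2* and *Dnmt3b* were at 63.5, 57.7 and 39.1 TPM in that library. Summed primed markers were at 770.3 TPM with SGC0946 and 232 TPM without. *Pou5f1*, the only primed marker past 2-fold, held 549 and 67.3 TPM of these sums. Naïve markers were past 2-fold higher with SGC0946 at 3 of 7 genes and germ cell markers at 4 of 6. Trophoblast markers were past 2-fold lower at 1 of 12, primed markers higher at 1 of 6, and of 2 neural and 6 fibroblast markers none was past 2-fold. The part of these markers in the values of *T* and *Eomes* was not tested.

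The genes whose pattern was most like *T* were found by Pearson's r of log2(TPM + 1) over the 11 libraries, centred within each experiment, among 10365 protein-coding genes with a mean of at least 5 TPM. They were *Epha4* (r = 0.980), *Tmem256* (0.974), *Cyp2b23* (0.973), *Prex2* (0.962) and *Rab4a* (0.962). These values describe the libraries, which share preparation within an experiment. *Epha4*, an ephrin receptor gene, had 18.7 and 16.4 TPM in c-Kit+ and 1.87 and 1.51 TPM in c-Kit- libraries. In BV+SC+ replicates 1 and 2 it had 9.69 and 4.18 TPM, and 11.8 TPM with SGC0946 against 8.00 TPM without. Among the 10 genes, *Eomes* (0.960) and *Evx1* (0.894) were closest to *T*, followed by *Fgf8* (0.656). The values were centred but not scaled, so the large difference of *T* between c-Kit+ and c-Kit- cells weighs most in r. With and without SGC0946, *Evx1* was at 63.0 and 56.2 TPM where *T* was at 16.9 and 2.64 TPM.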

How the data were processed

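RNA-seq of 11 libraries was analysed, and 25 samples of other assays were not analysed here. The authors estimated the deposited expected counts per gene with RSEM after Bowtie2 alignment to mm10, without normalization between libraries, and the deposited TPM are RSEM's, which divide by transcript length and by the library's total. The submitters' processing notes name RSEM 1.3.1 for the EpiSC, BV+SC+ and SGC0946 libraries, and name bcl2fastq for all. Their labels describe total RNA depleted of ribosomal RNA, and those of the sorted cells mRNA. Each library has its own deposited values. The experiments list different genes, so each was tested alone.

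After rounding to whole numbers, expected counts were compared with edgeR 4.0.16 under R 4.3.3 (filter by filterByExpr, scaling by TMM, quasi-likelihood test over all genes, Benjamini-Hochberg adjustment, only the 2 groups compared). The call was an adjusted p under 0.05 and a fold over 2, and DESeq2 1.42.0 was an alternative. On simulated counts with known changes, edgeR called 190 of 193 changed genes for the sorted cells and 193 of 194 for the BV+SC+ design. It also called 2 and 8 genes that had not been changed. Whether genes near the 2-fold limit in the real libraries are called as often was not tested. Recovery was also not tested for genes that differ as much between replicates as *T* and *Lhx1* do in BV+SC+ cells. For SGC0946 the log2 ratio of TPM + 1 was taken. Counting intervals are exact Poisson for counts and exact binomial (Clopper-Pearson) for ratios. Each replicate pair was compared by chi-square, and none was identical or within sampling noise.

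The 10 genes and all lists were chosen with earlier results of these data known. From each list up to 4 called genes with the highest mean TPM were named, and marker lists are given mainly as counts and summed levels. Named genes that share at least 98% of 75 or more bases with another gene have uncertain values. By the largest share of any isoform, this touches *Chrd* (54.4% with *Thpo*), *Etv5* (50.6% with *Gm4798*), *Tdgf1* (39.2% with *Tdgf1-ps1*), *Fgfr3* (29.0%), *Furin* (26.0%), *Sox17* (24.8%) and *Tcf7l1* (19.3%). Among the markers named it touches *Dppa3* (54.1% with *Dppa3-ps*), *Krt8* (48.1% with *Krt8-ps*) and *Pou5f1* (28.3% with *Gm19553*). Smaller shares are left out. Alternatives were DESeq2, RLE factors, other filters, other thresholds, effective length offsets, a replicate block and each replicate left out, and for SGC0946 other pseudocounts, filters and scales. Positions are from GENCODE M21 (GRCm38) and promoters from RefSeq.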

Additional observations from a re-analysis of the deposited data

How the results depend on the processing

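Calls on the 10 genes in the sorted cells kept their number except with at least 10 counts in every library, where none could be tested and 0 were called higher (3 in the report). With that filter the genes of the 12 other lists fell from 34 to 14 called higher, and in the BV+SC+ comparison from 30 to 9, because fewer genes were tested. In the BV+SC+ comparison no gene of the 10 was called higher, but 3 were with no filter (*T*, *Lhx1* and *Evx1*). Without EpiSC replicate 3 *Lhx1* was called higher, and without EpiSC replicate 1 or 2 none was. Fits without a BV+SC+ replicate hold 1 such library and are given as fold changes beside *T* and *Lhx1*. For *Eomes* in that comparison, the log2 fold change was -0.017 with the replicate block, and from -0.22 without BV+SC+ replicate 1 to 0.36 without replicate 2, with -0.0076 without EpiSC replicate 3. For SGC0946, 1 of the 10 genes (*T*) was past 2-fold with a pseudocount of 5 TPM, where *Eomes* and *Fgf8* changed by 0.46 and 0.47, and *Fgf8* changed by 0.90 with CPM. With that pseudocount, 3 genes of the other lists were past 2-fold lower, against 6.

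Over all genes, 1098 were higher in c-Kit+ cells, 706 under the filter of 10 counts and 2230 at any fold, and 1420 were lower, 2349 at any fold. In BV+SC+ cells 1983 were higher, 1164 with at least 10 counts and 3486 at any fold, and 2028 were lower, 3122 at any fold. For SGC0946, 889 were higher and 484 lower, against 185 and 86 with a pseudocount of 5, 558 and 163 with CPM, and 374 and 181 with TPM over 1 in both libraries. Of 744 counts of single lists under the alternatives, 55 moved up and 40 down by more than 1.5 times and 649 did not. In BV+SC+ cells, FGF genes called lower ranged from 1 to 6 and streak-inducing genes called lower from 2 to 12. In c-Kit+ cells, streak-inducing genes called lower ranged from 1 to 7, with 4 without c-Kit- replicate 2. In BV+SC+ cells, inhibitors called lower were 1 without EpiSC replicate 1 or 2 and 4 without BV+SC+ replicate 1. A group left with 1 library was assumed to vary like the other group.

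The labels give same-numbered replicates in compared groups but do not call them pairs. The deviations of same-numbered libraries had a correlation across genes of 0.11 in the sorted cells and -0.02 in the BV+SC+ comparison. With the replicate block, which leaves EpiSC replicate 3 without a partner, the log2 fold changes of *T*, *Evx1* and *Eomes* in c-Kit+ cells were 8.55, 3.75 and 3.46, that of *Fgf8* in BV+SC+ cells was -2.81, and the calls on the 10 genes did not change. Depth limits *Mixl1*, *Tbx6*, *Gsc*, *Mesp1* and *Msgn1*, which had at most 10 counts in each library.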
